A study of Arabidopsis thaliana with 6 samples.

Results

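The genes described here are those whose annotated isoforms differed strongly in the reads found past their 3′ ends. The deposited tables give, for every annotated transcript of Arabidopsis thaliana, the number of reads in the 500 bases that follow its 3′ end, so a gene with several isoforms can have several such windows. A gene was taken when it had at least 2 transcripts, when its highest transcript sum over the 6 libraries was at least 60 counts, and when that sum was at least 4 times the lowest transcript sum plus 1. This left 672 genes out of 5812 with 2 or more transcripts (11.6%) and out of 31109 genes in all. The genes were thus chosen by their summed counts, so the size of the ratio between the ends of a gene is a description and not a finding. The choice did not compare genotypes, but its sums include every genotype, so a change can affect which genes and ends were chosen. LURP1, given below, reached 60 counts only through WT.

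The libraries were made from 9-day-old seedlings of the Col-0 ecotype in 3 genotypes, with 2 libraries each: cpsf30-1 mutants, nerd-1 mutants and wild type (WT). Per the labels, poly(A) RNA was sequenced as stranded libraries with paired reads of 125 bases. Nothing in the labels says that the 2 libraries of a genotype came from separate cultures, so p-values measure only how far these samples differ, and that spread may be technical. In bulk seedlings, fewer cells of a type and less RNA per cell cannot be told apart.

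A messenger RNA ends where the cleavage and polyadenylation machinery cuts the nascent transcript and adds a poly(A) tail. CPSF30 is the zinc finger subunit of the cleavage and polyadenylation specificity factor, the complex that reads the signal upstream of the cut. Many plant genes have several poly(A) sites, and the choice among them sets where the transcript stops and how long its 3′ untranslated region is. Reads past an annotated end may come from transcripts that use a farther site, from transcripts that were not cut, or from a neighbouring gene. NERD is a plant protein known for its part in gene silencing that small RNAs direct, with methylation of the DNA.

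In what follows, the most-read and the least-read end of a gene are the transcripts with the highest and the lowest sum over the 6 libraries. The end ratio is the log2 of the count past the most-read end over the count past the least-read end, with 0.5 added to each. Both counts come from the same library, so library depth and scaling cancel in the fitted test, while the 0.5 lets depth act on the printed ratio where the least-read count is at or near 0. A fall of the end ratio means that the least-read window gained relative to the most-read one. Windows are named by the gene before them, so their counts say nothing by themselves about how strongly that gene is expressed. Total counts over all windows ranged from 11793952 to 18569498 per library. CPM are counts per 1000000 of a library's total, taken over the merged windows and scaled by TMM, a normalisation of edgeR. On that scale a count of 0 allows up to 0.187 to 0.283 CPM, from 3 counts. Such floors and the intervals given below cover counting error only.

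The last 30 bases of both ends are shown for the gene targeted in cpsf30-1, for genes whose end ratio changed, and for FCA. FCA is known for alternative polyadenylation, and whether the ends shown are the known sites was not tested. They were read from RefSeq TAIR10.1 in the direction of the transcript. Capitals mark the letters AATAAA, the sequence of the poly(A) signal, and whether they act as a signal there was not tested. The window that was counted starts at the base after the last one printed.

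CPSF30 most-read end (AT1G30460.2, chr1:10771186-10771215, minus strand): tcaactatagttgctcttcttcgatcttct
CPSF30 least-read end (AT1G30460.1, chr1:10770813-10770842, minus strand): ccaaaatcataaccaccctcttcctcgtcc
ARGAH2 most-read end (AT4G08870.2, chr4:5646893-5646922, minus strand): ttgtacagaaactaggggaaggagtgaagg
ARGAH2 least-read end (AT4G08870.1, chr4:5646395-5646424, minus strand): atatgactggttctaactacattttgacca
DXR most-read end (AT5G62790.2, chr5:25214257-25214286, minus strand): ggtactacttaatagcgtttttggcaagga
DXR least-read end (AT5G62790.1, chr5:25214125-25214154, minus strand): tgattaattacattcatctaagggttcttg
LHCA3 most-read end (AT1G61520.3, chr1:22701140-22701169, plus strand): gttccactgaggtgatcatcatctcatgtg
LHCA3 least-read end (AT1G61520.1, chr1:22701383-22701412, plus strand): tgctttaaaagtagtctcatcttatcactc
SDR1 most-read end (AT3G61220.2, chr3:22664327-22664356, plus strand): gtgtgagaataataagccaaaaatgtagta
SDR1 least-read end (AT3G61220.1, chr3:22664464-22664493, plus strand): tacaaacagaataatatatagttccataag
AT1G68580 most-read end (AT1G68580.1, chr1:25756025-25756054, plus strand): tcttgttaccttgatctcaacttcattgtc
AT1G68580 least-read end (AT1G68580.2, chr1:25756084-25756113, plus strand): aatgttatgaatagcttctgcataatttga
VDAC3 most-read end (AT5G15090.2, chr5:4888964-4888993, minus strand): aaatcagtaaaagaaaaagattgtgtcttg
VDAC3 least-read end (AT5G15090.1, chr5:4889293-4889322, minus strand): ttcccttagtggatttttctatgaggttct
AT3G56210 most-read end (AT3G56210.1, chr3:20852831-20852860, minus strand): atatgacttgtcttcagttttagttcgaat
AT3G56210 least-read end (AT3G56210.2, chr3:20852380-20852409, minus strand): aacccAATAAAcattcttctttcaccaaat
FCA most-read end (AT4G16280.1, chr4:9207164-9207193, minus strand): caagaactcatgtggaagAATAAAgcttga
FCA least-read end (AT4G16280.2, chr4:9206597-9206626, minus strand): gatctatcaatttgtagtttcctgatcttc

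The pairs show where the gene model of each isoform stops, which need not be a site of cleavage. The letters AATAAA stand in a printed end of AT3G56210 and of FCA. AATAAA stood within the last 30 bases of 39 of 598 most-read ends (6.52%) and of 41 of 598 least-read ends (6.86%), counting the genes whose ends differ in the reference and searching the strand of the transcript only. Over all 38527 transcripts of the tables with a position in the reference, 2427 carried it there (6.3%). The letters thus occurred at similar shares at both kinds of end. These positions come from the reference's gene models and are approximate: 63 of the 672 genes had different counts for isoforms that end at the same base there, and 11 could not be placed.

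Most of the genes had a least-read end downstream of the most-read one. In 439 of the 598 genes with different ends (73.4%) the least-read end lay farther downstream, and in 159 it lay upstream. Among the other 1415 genes with different ends, a highest sum of at least 60 and at least 2 windows that differ in counts, the least-read end lay downstream in 645 (45.6%) and upstream in 770. The median distance between the ends was 321 bases where the least-read end lay downstream and 220 bases where it lay upstream, and the largest was 7381 bases. In 405 genes the ends were under 500 bases apart, so that the windows share bases and reads, and in 193 they were at least 500 apart.

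**Figure D1:**
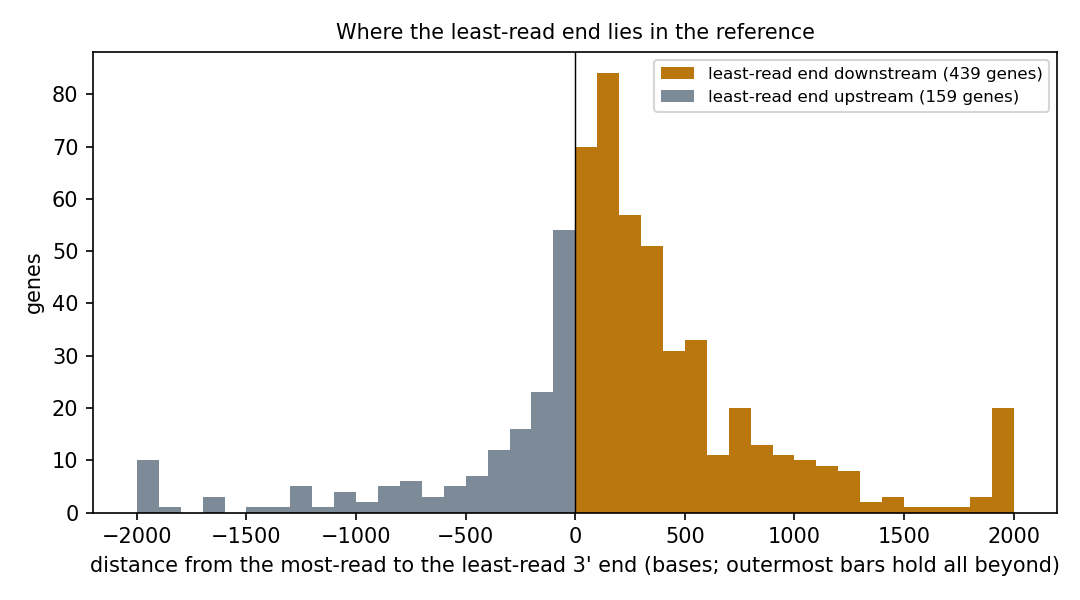
Number of genes (vertical axis) by the distance in bases from the most-read to the least-read 3′ end (horizontal axis), in bins of 100 bases. Positive distances, in 439 genes, mean that the least-read end lies downstream, and negative ones, in 159 genes, that it lies upstream.

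Where the least-read end lay downstream, its window usually lay outside the gene while the other lay on it. The most-read window of these 439 genes covered a median of 244 bases of the gene's own exons, and in 213 genes at least 250. The least-read window had no base in its own gene in 372 of them, and in 249 it touched no other annotated gene. The median ratio of the sums was 16.2 in the 188 genes with ends under 250 bases apart, 33.9 in the 105 with ends at least 250 and under 500 apart, and 60.9 in the 146 with ends at least 500 apart. Where the least-read end lay upstream, the most-read window touched a neighbour on the same strand in 60 of 159 genes and on the other strand in 70, and in 42 it was free of other genes.

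The sums spread over several orders of magnitude. The most-read end had a median sum of 954.5 counts and the least-read end one of 23, and the ratio was from 4 to under 10 in 210 genes, from 10 to under 100 in 313 and at least 100 in 149. The least-read sum was 0 in 25 genes and under 10 in 189. Of the 672 genes, 406 had 2 transcripts, 171 had 3 and 95 had more, up to 10. The genes lay on all 5 chromosomes, with 180, 121, 122, 116 and 133 on chromosomes 1 to 5.

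The highest sum belonged to RWA3 (AT2G34410), a protein of cell wall acetylation. Its most-read window, on chr2:14522623-14523122, lies on the neighbour AT2G34420 of the other strand and held 219380 and 234617 counts in cpsf30-1, 214809 and 243728 in nerd-1, and 189384 and 463769 in WT. ROPGEF11 (AT1G52240), a regulator of small G proteins, likewise had its 30691 and 47025 counts in cpsf30-1, 58491 and 58261 in nerd-1 and 60478 and 62720 in WT on a neighbour of the other strand, AT1G52230. These sums stood beside overlapping genes, and whether the authors counted by strand is not given in the sources used here.

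UBC10 (AT5G53300), a ubiquitin-conjugating enzyme, was free of such overlap. Its most-read window held 14506 and 17041 counts in cpsf30-1, 16101 and 16199 in nerd-1, and 15646 and 21322 in WT, while the window 904 bases farther held 0 in 5 libraries and 1 in nerd-1 replicate 2. ACR11 (AT1G16880), an ACT domain protein of the chloroplast, had 16149 and 21578 counts in cpsf30-1, 16975 and 16612 in nerd-1 and 14467 and 17527 in WT past its most-read end. Past its least-read end it had 2337 and 1911 in cpsf30-1, 1846 and 1777 in nerd-1 and 1615 and 3204 in WT. Neither ACR11 nor RWA3 passed the test of the end ratio in any comparison.

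At the limit of the rule, the ratio of the highest sum to the lowest sum plus 1 was 4.0 for the glycine-rich protein gene GRP-3, 4.017 for the fumarase gene FUM2 and 4.024 for PTAC7, a nuclear gene for a plastid protein. It was 3.973 for the shikimate kinase-like gene SKL1, 3.952 for AT4G03610 and 3.943 for AT2G41945, which were left out.

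Whether the ends of a gene are read in other proportions in cpsf30-1 than in WT was asked first. The end ratio fell in 8 of the 483 genes that could be fitted and rose in 1. In each of the 8 the least-read window rose while the most-read window was not called. The least-read windows of ARGAH2, DXR, VDAC3 and AT2G15910 passed edgeR's filter on low counts only through cpsf30-1. The rises called in those windows thus describe them and support nothing. The 8 include genes of arginine breakdown, isoprenoid synthesis, the mitochondrial outer membrane and photosystem I. Over all 2041 genes fitted, 0.539% had a fall called and 0.196% a rise (0.735% in all), against 1.86% of these 483. Fitted genes needed a least-read sum of at least 10, and a window near 0 in WT reached that sum through cpsf30-1, so the share and the medians of the fitted genes describe them only. Calls are Benjamini-Hochberg adjusted p under 0.05 over all genes fitted, in edgeR's quasi-likelihood test.

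Arginase 2 (ARGAH2, AT4G08870) cleaves arginine to ornithine and urea. Its least-read window, on chr4:5645895-5646394 and free of other genes, held 13 and 22 counts in cpsf30-1, 1 and 1 in nerd-1, and 0 and 0 in WT. Its most-read window, 498 bases upstream, held 3334 and 4979 counts in cpsf30-1, 3684 and 3627 in nerd-1, and 3292 and 3473 in WT. Both cpsf30-1 libraries stood above all others in the least-read window, and the most-read windows overlapped in part. The end ratio fell (edgeR adjusted p = 0.0319), and the least-read window was at least 5.71-fold higher in cpsf30-1 than in WT, taking 3 counts per WT library (edgeR adjusted p = 0.0196, and 0.0847 to 0.143 without 1 library). Its least-read sum reached the 10 counts needed for the fit only through cpsf30-1, so these p-values describe the window and support nothing.

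DXR (AT5G62790) is the reductoisomerase of the plastid pathway that makes isoprenoid precursors. Past its least-read end it had 65 and 52 counts in cpsf30-1, 3 and 2 in nerd-1, and 5 and 4 in WT. Past the most-read end, 132 bases upstream, it had 335 and 265 counts in cpsf30-1, 346 and 345 in nerd-1, and 286 and 450 in WT. The least-read windows of the cpsf30-1 libraries lay far above the other 4. In CPM its most-read window was lowest in cpsf30-1, at 25.8 and 20.3, against 28.4 and 29.8 in nerd-1 and 26.9 and 28.1 in WT, and was not called (edgeR adjusted p = 0.502). On the log2 scale its end ratio fell by 3.95 (SE 0.493, edgeR adjusted p = 0.0319). Both windows touch AT5G62780 on the other strand.

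VDAC3 (AT5G15090), a channel of the mitochondrial outer membrane, differs from DXR in that its least-read end lies 329 bases upstream of the most-read one. The least-read window held 30 and 26 counts in cpsf30-1, 4 and 3 in nerd-1, and 2 and 2 in WT. The most-read window held 126 and 117 counts in cpsf30-1, 134 and 125 in nerd-1, and 131 and 268 in WT. The cpsf30-1 libraries were the highest in the least-read window. In CPM they were the lowest in the most-read one, at 9.69 and 8.95, against 11.0 and 10.8 in nerd-1 and 12.3 and 16.7 in WT, which was not called (edgeR adjusted p = 0.104). The ratio of VDAC3 fell by 4.43 (SE 0.716, edgeR adjusted p = 0.0299), and both windows touch AT5G15080 on the other strand.

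LHCA3 (AT1G61520) encodes a light-harvesting protein of photosystem I and had the deepest counts of the 9. Its most-read window held 32729 and 29935 counts in cpsf30-1, 22096 and 22807 in nerd-1, and 22860 and 49063 in WT. The window 243 bases farther held 123 and 118 counts in cpsf30-1, 7 and 14 in nerd-1, and 8 and 25 in WT. WT replicate 2 was the highest in the most-read window, and only the cpsf30-1 libraries passed 100 in the other. A fall of 3.07 in the end ratio passed (SE 0.266, edgeR adjusted p = 0.0473), and the windows touch AT1G61665 on the other strand.

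SDR1 (AT3G61220), a short-chain dehydrogenase/reductase, had one of the end ratios nearest to 0 in cpsf30-1 among the 9 genes. The least-read window of SDR1 held 119 and 156 counts in cpsf30-1, 15 and 19 in nerd-1, and 10 and 11 in WT. The most-read window, 137 bases upstream, held 237 and 352 counts in cpsf30-1, 198 and 245 in nerd-1, and 165 and 198 in WT. Its end ratio was 0.99 and 1.17 in cpsf30-1, 3.68 and 3.65 in nerd-1, and 3.98 and 4.11 in WT, a fall of 3.0 against WT (SE 0.337, edgeR adjusted p = 0.0238). The windows touch AT3G09575 on the same strand and AT3G61230 on the other.

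AT1G13930, annotated as an oleosin-B3-like protein, had 97 and 171 counts in cpsf30-1, 14 and 17 in nerd-1, and 19 and 15 in WT past its least-read end. Its most-read window lies 797 bases downstream, on AT1G13940 of the other strand, with 207 and 368 counts in cpsf30-1, 412 and 404 in nerd-1, and 391 and 471 in WT. The least-read window touches no other gene. The cpsf30-1 libraries were the highest in the least-read window and the lowest in the most-read one, and the end ratio fell by 3.55 (SE 0.272, edgeR adjusted p = 0.0299).

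AT1G68580, with an agenet and a BAH domain, motifs known from chromatin-binding proteins, has ends 59 bases apart. The least-read window held 86 and 78 counts in cpsf30-1, 14 and 12 in nerd-1, and 15 and 28 in WT. The most-read window held 878 and 707 counts in cpsf30-1, 848 and 725 in nerd-1, and 721 and 1543 in WT. In CPM the most-read window was 67.5 and 54.1 in cpsf30-1, 69.7 and 62.7 in nerd-1, and 67.9 and 96.2 in WT, so cpsf30-1 overlapped nerd-1 and lay below both WT libraries without a call (edgeR adjusted p = 0.236). Its end ratio fell by 2.43 (SE 0.25, edgeR adjusted p = 0.0238).

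AT2G15910, a protein with a CSL zinc finger, had 23 and 28 counts in cpsf30-1, 7 and 8 in nerd-1, and 5 and 5 in WT in its least-read window, which touches no other gene. Its most-read window lies 1635 bases downstream on AT2G15900 of the other strand and held 267 and 313 counts in cpsf30-1, 309 and 299 in nerd-1, and 339 and 421 in WT. Its end ratio fell by 2.71 (SE 0.495, edgeR adjusted p = 0.0238).

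The rise of the end ratio was in AT5G19840, a protein of the 2-oxoglutarate and iron dependent oxygenase family, and was small. Its most-read window held 1087 and 1371 counts in cpsf30-1, 980 and 1033 in nerd-1, and 886 and 1200 in WT. Its least-read window held 99 and 123 counts in cpsf30-1, 94 and 98 in nerd-1, and 119 and 151 in WT. The end ratio was 3.45 and 3.47 in cpsf30-1, 3.38 and 3.39 in nerd-1 and 2.89 and 2.99 in WT, a rise of 0.52 against WT (SE 0.137, edgeR adjusted p = 0.0415). In DESeq2 its adjusted p was 0.519, and the ends are 45 bases apart.

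All 9 genes kept their direction in each of the 6 fits that left out 1 library, and none passed in any of them, with edgeR adjusted p from 0.06 to 0.227. DESeq2 called 36 falls and 4 rises among the 483 genes, with 2.25% falls and 0.588% rises over all genes fitted, and 8 of the 9 edgeR calls were among them. At an unadjusted p under 0.05 edgeR had 88 falls and 27 rises among the 483 genes, with 8.08% and 3.33% over all genes fitted. The median change of the end ratio was −0.55 over these 483 genes and −0.01 over all 2041.

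**Figure D2:**
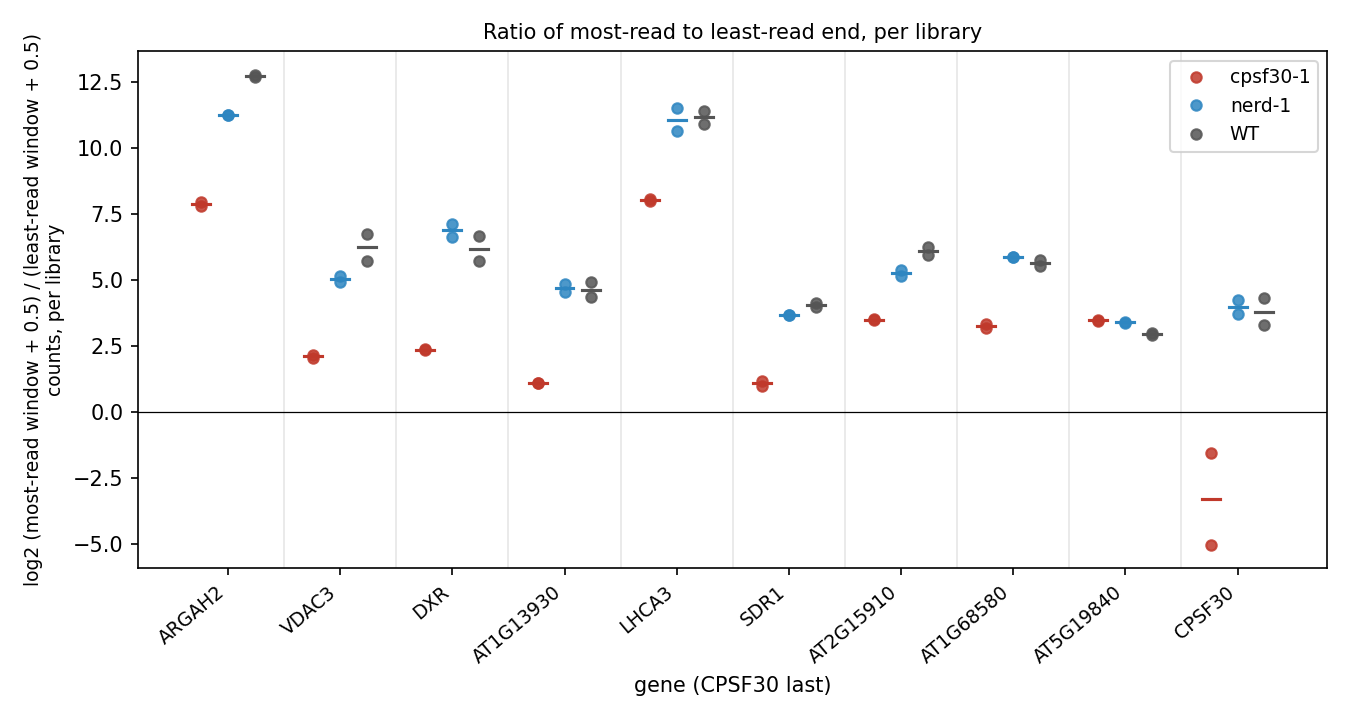
End ratio (vertical axis, log2 of the most-read over the least-read count with 0.5 added to each) in each library for the 9 genes called in cpsf30-1 against WT, ordered by fitted change, and for CPSF30. Points are libraries and bars their mean over 2 libraries. In the first 8 genes both cpsf30-1 points lie below the nerd-1 and WT points, and in AT5G19840 they lie above.

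CPSF30 itself (AT1G30460) is among the 672 genes. Its windows were looked at for the label of the mutant, which they cannot settle, since window counts do not measure expression. Its most-read window, on chr1:10770686-10771185, held 1 and 0 counts in cpsf30-1, 66 and 58 in nerd-1, and 43 and 49 in WT. Its least-read window, 373 bases downstream, held 4 and 16 counts in cpsf30-1, 3 and 4 in nerd-1, and 4 and 2 in WT. The most-read window of CPSF30 was 90.0 times higher in WT than in cpsf30-1 (95% exact counting interval 15.8 to 3590), and the fall passed the window test (edgeR adjusted p = 0.00538) in this fit and in all 6 that left out 1 library. The end ratio was −1.58 and −5.04 in cpsf30-1, 4.25 and 3.70 in nerd-1, and 3.27 and 4.31 in WT. That difference did not pass in edgeR (adjusted p = 0.115) and passed in DESeq2 (adjusted p = 0.000298). Both windows touch AT1G30455 on the other strand. NERD (AT2G16485) has 1 transcript in the tables, with 3 counts in cpsf30-1 replicate 1 and 0 in the other 5 libraries, so these windows do not check the nerd-1 label.

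**Figure D3:**
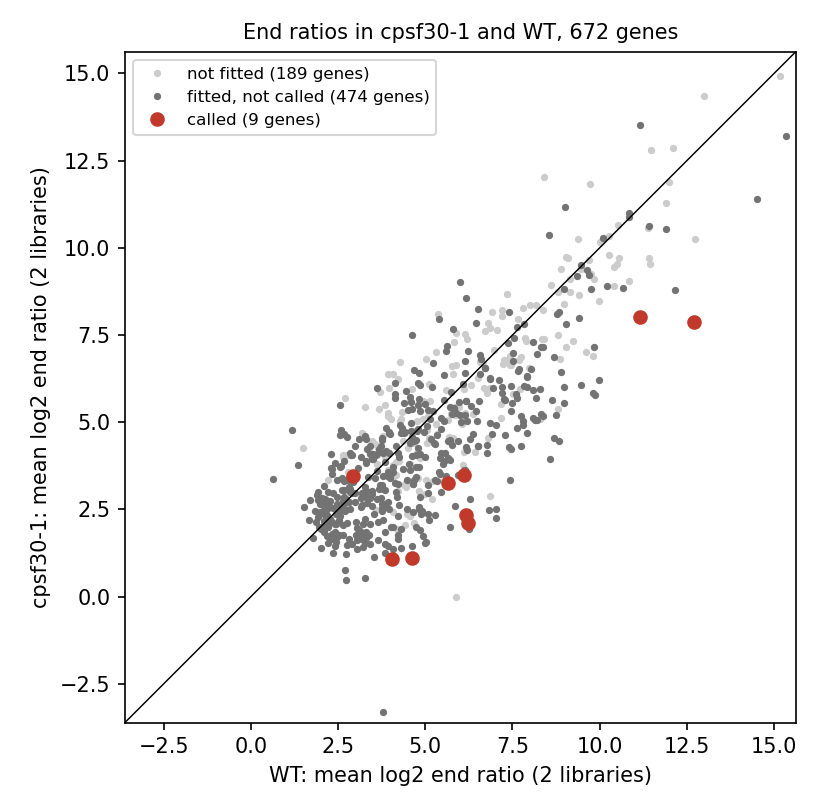
Mean end ratio over 2 libraries in cpsf30-1 (vertical axis) against WT (horizontal axis), both as log2 counts, for all 672 genes. Red points are the 9 genes called, dark points the 474 fitted and not called, pale points the 189 not fitted, and the line marks equal ratios. The red points below the line are the 8 falls, and the dark point below 0 on the vertical axis is CPSF30.

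Each window was also tested alone, among all 16605 windows that passed edgeR's filter on low counts after windows of a gene with the same counts were merged. The filter passed all 672 most-read windows and 257 of the least-read ones. Among the least-read windows 41 rose and 4 fell in cpsf30-1 against WT, or 16.0% and 1.56% of those tested, with 7.27% and 3.22% over all windows. A window near 0 in nerd-1 and WT passed that filter only through cpsf30-1, so the shares of least-read windows are a description and are not set against those over all windows. Among the most-read windows 38 rose and 22 fell (5.65% and 3.27%). In 6 genes both windows rose, and in 35 the least-read window rose and the other was not called. In 0 genes did the least-read window rise while the other fell. These counts rest on the same 257 least-read windows and are a description too.

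Windows whose libraries do not overlap were counted without that filter. Over all 672 genes, both cpsf30-1 libraries lay above both WT libraries in CPM in 234 least-read windows (34.8%) and below in 82 (12.2%), and the libraries overlapped in 356. Over all 34372 merged windows, of which 16605 passed that filter, the shares were 20.4% above and 15.8% below. The sets were not matched for depth, so their shares are given side by side only. The most-read windows stood above in 177 genes (26.3%) and below in 175 (26.0%). Where the least-read end lay downstream, 155 of 439 least-read windows stood above (35.3%), and where it lay upstream 57 of 159 did (35.8%). Summed over the 672 genes, the least-read windows came to 2350 and 2260 CPM in cpsf30-1, 1770 and 1650 in nerd-1, and 1790 and 1890 in WT. Least-read windows without any count numbered 145 and 133 in cpsf30-1, 186 and 239 in nerd-1, and 214 and 170 in WT.

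Some of the 41 least-read windows that rose are named here, after their values were seen. The choice was not by size: AT1G67700 (log2 rise 3.78) and SAG21 (3.46) rose more than several genes named below. The functions named thus do not describe the 41. PGM2, FSD1, ATHM2, GSR2, ELI3-1, GRP-3, AT4G32590, AT2G01220 and AT4G19410 had few counts in nerd-1 and WT. Their least-read windows passed the filter only through cpsf30-1, so their p-values, without 1 library too, describe them and support nothing. The same holds for the least-read windows of ARGAH2, DXR, VDAC3 and AT2G15910, given above. In 4 genes the rise passed in this fit and in all 6 that left out 1 library. The first is AT3G60750, a transketolase of carbon fixation, with 568 and 759 counts in cpsf30-1, 35 and 26 in nerd-1, and 13 and 21 in WT, a rise of 5.31 on the log2 scale against WT (SE 0.302, edgeR adjusted p = 0.000826). Its ends are 523 bases apart, the window touches no other gene, and its most-read window was not called, with 11510 and 8918 counts in cpsf30-1, 6045 and 5822 in nerd-1, and 4416 and 9730 in WT. PGM2 (AT1G70730), a phosphoglucomutase of sugar metabolism, had 138 and 98 counts in cpsf30-1, 3 and 4 in nerd-1, and 4 and 3 in WT, a rise of 5.03 (SE 0.496, edgeR adjusted p = 0.00371). The protein kinase gene AT5G45430 had 290 and 211 counts in cpsf30-1, 4 and 2 in nerd-1, and 10 and 29 in WT, a rise of 3.75 (SE 0.377, edgeR adjusted p = 0.00371). The fourth is SDR1, with a rise of 3.70 (SE 0.375, edgeR adjusted p = 0.00371). In PGM2 and AT3G60750 the end ratio missed the threshold (edgeR adjusted p = 0.115 and 0.0649), as it did in AT5G45430 (0.0701).

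FSD1 (AT4G25100), an iron superoxide dismutase of the chloroplast, had 86 and 40 counts in cpsf30-1, 0 and 0 in nerd-1, and 1 and 2 in WT past its least-read end. That was 42.9 times the WT level (95% exact counting interval 14.4 to 211, edgeR adjusted p = 0.0118), and the window of FSD1 touches AT4G25090 on the same strand. ATHM2 (AT4G03520), an m-type thioredoxin of the chloroplast, had 84 and 58 counts in cpsf30-1, 3 and 5 in nerd-1, and 4 and 1 in WT, a rise of 4.73 (SE 0.716, edgeR adjusted p = 0.0103). The call in FSD1 was lost without cpsf30-1 replicate 1 (edgeR adjusted p = 0.0969), and that in ATHM2 without cpsf30-1 replicate 1 or 2 (0.0776 and 0.0557).

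GSR2 (AT1G66200), a glutamine synthetase gene, had 21 and 20 counts in cpsf30-1, 0 and 0 in nerd-1, and 1 and 1 in WT in its least-read window, 21.0 times the WT level (95% exact counting interval 5.44 to 179). Its most-read window, with 7529 and 11352 counts in cpsf30-1, 8406 and 8012 in nerd-1, and 6180 and 7517 in WT, was not called. GAPA-2 (AT1G12900), a subunit of the glyceraldehyde 3-phosphate dehydrogenase of the Calvin cycle, had 44 and 34 counts in cpsf30-1, 11 and 12 in nerd-1, and 4 and 5 in WT. HPR (AT1G68010), the hydroxypyruvate reductase of photorespiration, had 66 and 74 counts in cpsf30-1, 13 and 17 in nerd-1, and 12 and 17 in WT. In each of these 3 the cpsf30-1 libraries lay above the other 4, and the edgeR adjusted p against WT was 0.0256 for GSR2, 0.0142 for GAPA-2 and 0.0143 for HPR. Neither GSR2 nor GAPA-2 passed in any fit that left out 1 library (adjusted p from 0.0608 to 0.164), and HPR passed in the 2 without a nerd-1 library and not in the other 4 (from 0.0511 to 0.0946).

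Lhca5 (AT1G45474), a minor light-harvesting protein of photosystem I, showed a smaller rise from a higher level. Its least-read window held 227 and 335 counts in cpsf30-1, 120 and 71 in nerd-1, and 78 and 81 in WT, a rise of 1.81 (SE 0.332, edgeR adjusted p = 0.0182). The call was lost without WT replicate 2 (0.0712) or cpsf30-1 replicate 2 (0.0889). CA1 (AT3G01500), the chloroplast carbonic anhydrase, had 98 and 225 counts in cpsf30-1, 39 and 24 in nerd-1, and 35 and 34 in WT, with an edgeR adjusted p of 0.0299 that passed without cpsf30-1 replicate 1 and not without any other library, up to 0.136. Its isoforms end at the same base in the reference.

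Larger rises than those of Lhca5 (1.81) and CA1 (2.21) were seen at 4 more genes, each from low counts in the other genotypes. On the log2 scale they were 4.21 in ELI3-1, 4.19 in GRP-3, 5.22 in AT4G32590 and 4.21 in AT2G01220. ELI3-1 (AT4G37980), a cinnamyl alcohol dehydrogenase, had 47 and 119 counts in cpsf30-1, 13 and 4 in nerd-1, and 3 and 6 in WT past its least-read end, a rise of 4.21 (SE 0.73, edgeR adjusted p = 0.0149). The most-read window of ELI3-1 also rose, by 0.98 (edgeR adjusted p = 0.0102). The glycine-rich protein gene GRP-3 (AT2G05520) had 103 and 68 counts in cpsf30-1, 0 and 0 in nerd-1, and 6 and 3 in WT (edgeR adjusted p = 0.0134). AT4G32590, a ferredoxin-like protein, had 77 and 73 counts in cpsf30-1, 5 and 0 in nerd-1, and 0 and 4 in WT (edgeR adjusted p = 0.0203). Its most-read window rose too, by 1.77 (edgeR adjusted p = 0.043). The ends of AT4G32590 are 27 bases apart, and GRP-3 has isoforms with the same end in the reference. The fourth is AT2G01220, with an edgeR adjusted p of 0.044. The call in ELI3-1 was lost without WT replicate 1, WT replicate 2 or cpsf30-1 replicate 2 (adjusted p up to 0.111), and that in GRP-3 without cpsf30-1 replicate 1 or 2 (0.101 and 0.0655). AT4G32590 lost it without WT replicate 1, cpsf30-1 replicate 1 or cpsf30-1 replicate 2 (up to 0.109), and AT2G01220 without any of the 6 libraries (up to 0.222).

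**Figure D4:**
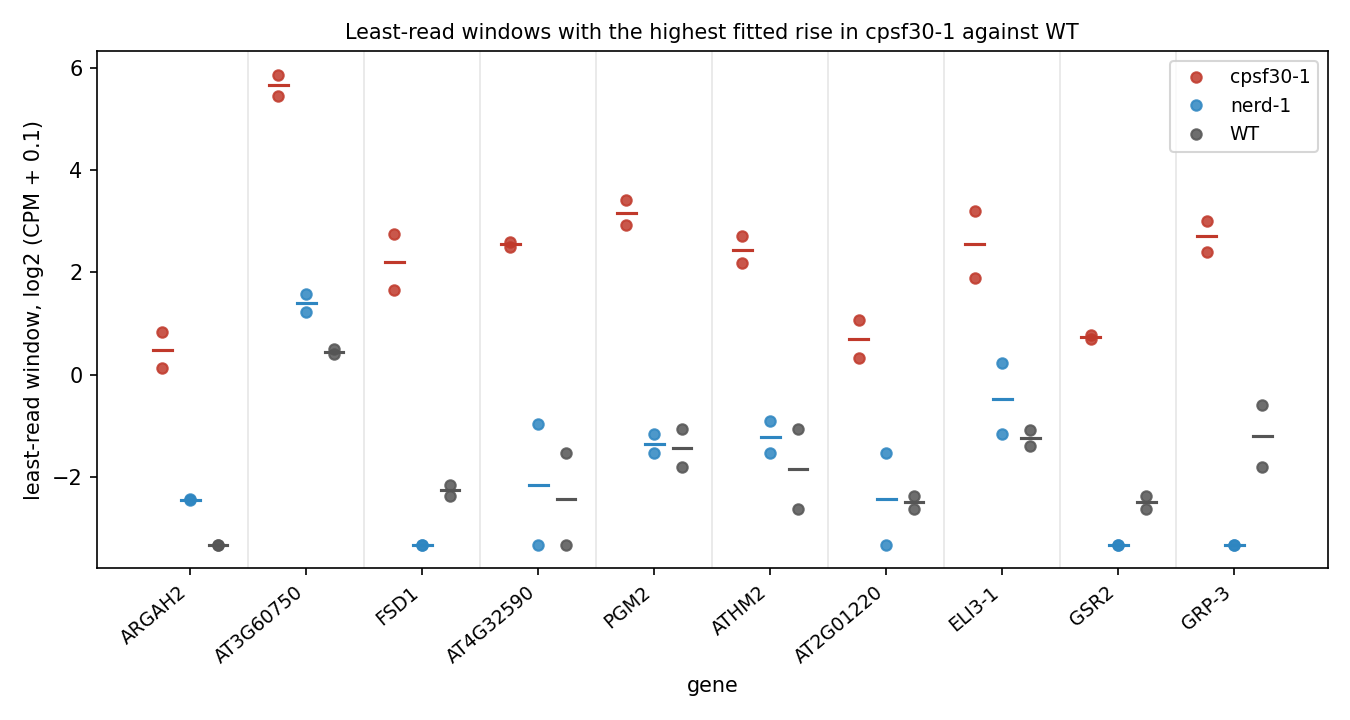
Counts past the least-read end (vertical axis, log2 of CPM with 0.1 added) in each library for the 10 genes with the highest fitted rise of that window in cpsf30-1 against WT. Points are libraries, bars are means over 2 libraries, and the lowest position on the axis is a count of 0. In all 10 genes both cpsf30-1 points lie above the nerd-1 and WT points.

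The least-read window fell in 4 genes, each with an end ratio that was not called. EIP9 (AT5G64360), a DnaJ-domain protein, had 113 and 104 counts in cpsf30-1, 193 and 181 in nerd-1, and 186 and 265 in WT, a fall of 1.03 (SE 0.194, edgeR adjusted p = 0.02). ABF2 (AT1G45249), a bZIP factor of abscisic acid signalling, had 17 and 14 counts in cpsf30-1, 53 and 38 in nerd-1, and 43 and 64 in WT, a fall of 1.75 (SE 0.374, edgeR adjusted p = 0.0297). The others were AT1G05870, an uncharacterised protein, with a fall of 1.35, and the protein kinase gene AT4G01330, with a fall of 2.23. Their edgeR adjusted p were 0.0274 and 0.0376, and without 1 library the 4 genes came to between 0.0244 and 0.171. EIP9 and AT1G05870 each passed without WT replicate 2 and not without any other library, while ABF2 and AT4G01330 passed in none of the 6 fits.

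Among the most-read windows of genes other than CPSF30, the F-box gene AT2G16365 fell and passed in all 6 fits that left out 1 library. It had 101 and 100 counts in cpsf30-1, 555 and 636 in nerd-1, and 559 and 1144 in WT, a fall of 3.01 (SE 0.242, edgeR adjusted p = 0.00235). Its window touches AT2G16367 on the other strand, and its least-read window, 2870 bases upstream, held 0 to 4 counts in every library. LURP1 (AT2G14560), a gene of defence against downy mildew, had 0 and 0 counts in cpsf30-1, 3 and 4 in nerd-1, and 17 and 49 in WT. That window passed the filter on low counts only through WT, so its p-values describe it and support nothing. The window of LURP1 was at least 10.1-fold lower in cpsf30-1 than in WT, with 3 counts per cpsf30-1 library (edgeR adjusted p = 0.013, with 0.0336 without WT replicate 1 and up to 0.0822 without another library).

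In 6 genes both windows rose, and the end ratio was called in none of the 6. They are ELI3-1 and AT4G32590, given above, with AT2G26500, AT3G26510, AT4G19410 and AT5G61670. AT2G26500, annotated as petM, a small subunit of the cytochrome b6f complex, had 960 and 843 counts in cpsf30-1, 181 and 165 in nerd-1, and 167 and 296 in WT past the most-read end. Past the least-read end it had 57 and 47 in cpsf30-1, 12 and 14 in nerd-1, and 10 and 19 in WT. The windows rose by 2.01 and 1.89 (edgeR adjusted p = 0.00425 and 0.0337), and the end ratio differed by 0.13 (SE 0.31, edgeR adjusted p = 1.0). The pectin acetylesterase gene AT4G19410 had 1028 and 911 counts in cpsf30-1, 129 and 119 in nerd-1, and 137 and 180 in WT past the most-read end, and 61 and 28 in cpsf30-1, 3 and 0 in nerd-1, and 3 and 5 in WT past the other. The most-read rise passed in all 6 fits that left out 1 library in both genes, and the least-read rise in none.

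The most-read window rose in PIP1;4 (AT4G00430), an aquaporin of the plasma membrane. It held 487 and 364 counts in cpsf30-1, 54 and 70 in nerd-1, and 55 and 115 in WT, a rise of 2.39 (SE 0.286, edgeR adjusted p = 0.00589). Its least-read window held 11 and 6 counts in cpsf30-1, 0 and 1 in nerd-1, and 0 and 1 in WT and was too low to be tested. CP29 (AT3G53460), an RNA-binding protein of the chloroplast, had 7055 and 5591 counts in cpsf30-1, 2151 and 2063 in nerd-1, and 1471 and 3053 in WT past its most-read end, a rise of 1.56 (SE 0.21, edgeR adjusted p = 0.00747). Both passed in all 6 fits that left out 1 library.

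In nerd-1 against WT no gene passed the test of the end ratio. The end ratio was called in 0 of the 483 genes in edgeR and in 0 in DESeq2, with 0.0% and, for falls in DESeq2, 0.049% over all genes fitted. At an unadjusted p under 0.05 edgeR had 16 rises and 17 falls, or 33 genes, with 1.57% and 2.11% over all genes fitted. The median change was 0.0 over the 483 genes. Both nerd-1 libraries stood above both WT libraries in 99 least-read windows (14.7%) and below in 104 (15.5%), with 14.7% and 13.9% over all windows.

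The window test found 1 change among these genes in nerd-1, in the most-read window of MRD1 (AT1G53480). MRD1 is named for its lower expression in a methionine over-accumulating mutant. It had 1 and 1 counts in nerd-1 and 85 and 180 in WT, and 47 and 33 in cpsf30-1. The level in WT was 118 times that in nerd-1 (95% exact counting interval 32.3 to 979, edgeR adjusted p = 0.0192), where 0.0422% of all windows fell and 0.012% rose in nerd-1. The call on MRD1 was lost without nerd-1 replicate 1 or 2 (edgeR adjusted p = 0.638 and 0.506) and without cpsf30-1 replicate 1 or 2 (0.0845 and 0.0848). The window touches AT1G07887 on the other strand, and the least-read window of MRD1 held 0 or 1 counts in every library.

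The comparison of cpsf30-1 with nerd-1 shares the cpsf30-1 libraries with that against WT, so the values of both are given side by side and not as support for each other. The end ratio fell in 7 genes and rose in 1 in cpsf30-1 against nerd-1, with 0.49% and 0.196% over all genes fitted (0.686% in all). DESeq2 called 28 falls and 6 rises, with 1.96% and 0.686% over all genes fitted, and at an unadjusted p under 0.05 edgeR had 80 falls and 28 rises, with 7.45% and 3.38%. DXR fell by 4.69 against nerd-1 and by 3.95 against WT. VDAC3 fell by 3.05 against nerd-1 and by 4.43 against WT, and AT1G13930 by 3.61 against nerd-1 and 3.55 against WT. The adjusted p against nerd-1 in edgeR were 0.0345 for DXR, 0.0377 for VDAC3 and 0.0345 for AT1G13930. The least-read window of ARGAH2 was 15.9 times higher in cpsf30-1 than in nerd-1 (95% exact counting interval 4.09 to 137), with an edgeR adjusted p of 0.0377 for the ratio. ARGAH2 is counted among the 7 falls, but its least-read window reached the sum needed for the fit only through cpsf30-1. That p-value thus describes the window and supports nothing. LHCA3 did not pass against nerd-1 (fall of 3.03, edgeR adjusted p = 0.0609).

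The rise was in AT3G56210, an ARM repeat protein whose least-read end carries AATAAA. Its most-read window held 729 and 1358 counts in cpsf30-1, 126 and 133 in nerd-1, and 150 and 132 in WT. Its least-read window, 451 bases downstream and on AT3G56200 of the other strand, held 29 and 60 counts in cpsf30-1, 15 and 14 in nerd-1, and 11 and 9 in WT. Both windows were highest in cpsf30-1, and the gain was larger past the most-read end. The end ratio rose by 1.41 against nerd-1 (SE 0.321, edgeR adjusted p = 0.0377) and was 0.76 higher than in WT without passing (SE 0.365, edgeR adjusted p = 0.48). No call of the end ratio against nerd-1 passed in any of the 6 fits that left out 1 library (adjusted p from 0.0571 to 0.413). Tested alone against nerd-1, 32 least-read windows were higher in cpsf30-1 and 5 were lower. Some least-read windows passed the filter on low counts only through cpsf30-1, as given above. The 32 and 5 are thus a description and are not compared with shares over all windows. The most-read windows, all of which were tested, had 46 rises (6.85%) and 17 falls (2.53%), where all windows had 6.91% and 3.47%.

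The genes of 4 lists were looked up for their ends, and all their members were in the tables. Of 30 genes of the polyadenylation machinery 13 had 2 or more transcripts, and 3 of these, CPSF30, FCA and nPAP, belonged to the 672. Of 8 genes known for alternative polyadenylation 6 had several transcripts, and CPSF30, FCA and AT1G58602 belonged. Of 22 splicing regulators 17 had several transcripts, and SR34a, SR45 and CCR1 belonged. Of 29 photosynthesis genes 9 had several transcripts, and LHCA3 belonged. The end ratio was called in 0 of the 3, 0 of the 3, 0 of the 2 fitted and 1 of the 1 fitted, with median changes of −0.54, −0.24, −0.53 and −3.07 in cpsf30-1 against WT, beside −0.55 over the 483 and −0.01 over all genes fitted. At an unadjusted p under 0.05 in edgeR, CPSF30 passed (0.00183), and FCA, nPAP, AT1G58602, SR34a and SR45 did not.

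FCA (AT4G16280) encodes an RNA-binding protein of flowering time control, and its own transcript is known to end at several sites. Whether the ends compared here are those sites was not tested, so the values of FCA describe these windows only. Its most-read window held 207 and 269 counts in cpsf30-1, 291 and 255 in nerd-1, and 171 and 236 in WT. Its least-read window, 567 bases downstream, held 48 and 54 counts in cpsf30-1, 66 and 39 in nerd-1, and 57 and 69 in WT. In the least-read window both cpsf30-1 libraries lay below both WT libraries, while the nerd-1 libraries fell on either side of cpsf30-1. The end ratio was 0.53 higher in cpsf30-1 than in WT without passing (SE 0.229, edgeR adjusted p = 0.568). It was 0.70 higher in nerd-1 than in WT, also without passing (SE 0.227, edgeR adjusted p = 1.0).

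nPAP (AT4G32850), a nuclear poly(A) polymerase, had 155 and 162 counts in cpsf30-1, 115 and 121 in nerd-1, and 141 and 250 in WT past its most-read end. Past its least-read end it had 7 and 5 in cpsf30-1, 1 and 3 in nerd-1, and 8 and 2 in WT, with cpsf30-1 between the WT libraries. AT1G58602, an immune receptor gene known as RPP7, had a least-read window that differed strongly within nerd-1 and WT. It held 257 and 236 counts in cpsf30-1, 170 and 23 in nerd-1, and 14 and 386 in WT, so the WT libraries alone spanned the values of the other 4. Its most-read window held 1547 and 1547 counts in cpsf30-1, 709 and 555 in nerd-1, and 725 and 1416 in WT.

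The splicing regulators SR34a (AT3G49430) and SR45 (AT1G16610) did not pass. SR34a had 22 and 25 counts in cpsf30-1, 11 and 11 in nerd-1, and 10 and 17 in WT past its least-read end, and 131 and 82 in cpsf30-1, 72 and 64 in nerd-1, and 55 and 150 in WT past the most-read one. Its end ratio was 0.74 lower in cpsf30-1 than in WT, as a log2 change of −0.74 (SE 0.412, edgeR adjusted p = 0.732). SR45 had 29 and 39 counts in cpsf30-1, 11 and 17 in nerd-1, and 10 and 44 in WT past its least-read end, with a log2 change of −0.32 against WT (SE 0.409, edgeR adjusted p = 1.0). CCR1 (AT4G39260), a glycine-rich RNA-binding protein under clock control, had 28 and 38 counts in cpsf30-1, 114 and 56 in nerd-1, and 87 and 71 in WT past its most-read end and 0 to 3 past the other, and was not fitted.

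The end ratio of single genes also differed between the libraries of a genotype. The SD of that difference over the 483 fitted genes was 1.51 in cpsf30-1, 1.30 in nerd-1 and 1.58 in WT on the log2 scale. Over all 672 genes, those not fitted included, the median end ratio was 4.38 and 4.28 in cpsf30-1, 4.77 and 4.95 in nerd-1, and 4.69 and 5.01 in WT. Both cpsf30-1 medians were below the other 4. Runs of neighbouring genes that were high in 1 library alone were also sought, and the longest held 112 genes of chromosome 1 in WT replicate 1. Others lay in WT and nerd-1 libraries and in cpsf30-1 replicate 2. The latter had runs of 5 genes on chromosome 1 and 23 on chromosome 4 (AT4G37700 to AT4G37910). ELI3-1 (AT4G37980) comes soon after the run on chromosome 4 by gene number, and whether its counts belong to it was not tested. None of the 672 genes lay in such a run. Runs were called from the lowest window of each gene, which is low in these genes by choice. The search could therefore hardly find them, and it does not show that their windows are free of such runs.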

How the data were processed

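The libraries measured poly(A) RNA of cpsf30-1, nerd-1 and WT seedlings. The authors deposited raw counts for the window past each transcript's 3′ end, without normalisation. The TAIR10 build, TopHat2 2.0.7, Bowtie2 2.3.4, Cuffdiff and Cufflinks 2.2.1 are named per the submitters' processing notes. How reads were counted, and whether by strand, is not given in the sources used here, so reads of overlapping genes cannot be assigned.

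Samples were grouped by the genotype in the labels. The end ratio was tested in edgeR 4.0.16 (limma 3.58.1, R 4.3.3) on both windows of each gene stacked as 12 columns, with a term per library, per end and per end and genotype, a quasi-likelihood F-test (two-sided) and all 6 libraries. The fit had 3 residual and 0.743 prior degrees of freedom. Genes had 2 windows that differ in counts, a highest sum of at least 60 and a lowest of at least 10. Single windows were tested in edgeR with its filter on low counts, TMM scaling and 4.31 prior degrees of freedom. The SE of an end ratio is the larger of the model's and the counting error. The SE of a single window is the model's alone and can lie below the counting error. Calls are Benjamini-Hochberg adjusted p under 0.05 over all genes or windows tested. The code was tested on simulated data.

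Window positions came from the TAIR10.1 gene models of RefSeq, matched by transcript name. The genes and lists were chosen with earlier results of these data known, so they are no independent evidence. The naming rule takes called end ratios with libraries of both genotypes apart (up to 10 per direction for cpsf30-1 against WT, 4 for the others), 3 genes per list, CPSF30, NERD, the 5 highest sums and 3 genes on each side of the limit. Genes named from single windows were chosen after their values were seen. Alternatives were DESeq2 1.42.0, limma, other filters, scalings, pairs of windows and thresholds, 4 libraries, a replicate block and each library left out, and an exchanged replicate numbering was added after seeing the data. Fitted folds use TMM-scaled counts.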

Additional observations from a re-analysis of the deposited data

How the results depend on the processing

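The end ratio calls among the 672 genes, 1 rise and 8 falls in cpsf30-1 against WT and 1 rise and 7 falls against nerd-1, depended on the test. DESeq2 gave 4 rises and 36 falls against WT and 6 rises and 28 falls against nerd-1. The replicate block, an adjusted p under 0.01, fits of the 4 compared libraries alone and each library left out (0 to 0) gave 0 rises and 0 falls in both comparisons. limma gave 1 rise and 7 falls against WT and 1 rise and 9 falls against nerd-1, and counts within 1.5 times of the main ones came from lowest sums of at least 1 or 30, from the most distal against the most proximal end, and without genes in runs. In nerd-1 against WT the count was 0 under every alternative run. The cause of these differences was not tested.

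Window calls, both windows of a gene counted together, were 105 in cpsf30-1 against WT, 1 in nerd-1 against WT and 100 in cpsf30-1 against nerd-1. Without a filter they were 165, 31 and 183, and with only the 4 libraries compared 65, 0 and 167. DESeq2 gave 8 in nerd-1 against WT. Leaving out each library gave 25 to 58, 0 to 1 and 0 to 116, where cpsf30-1 against nerd-1 had 0 without nerd-1 replicate 1 or 2, 18 without cpsf30-1 replicate 1 and 27 without cpsf30-1 replicate 2. Other scalings and unmerged windows stayed within 1.5 times.

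The replicate numbers did not pair the samples: same-numbered libraries of cpsf30-1 and WT deviated with r = −0.356 over windows, those of nerd-1 and WT with 0.0154 and those of cpsf30-1 and nerd-1 with −0.0109. With the replicate block the window calls were 47, 0 and 32. With the cpsf30-1 numbers exchanged in the block, they were 172, 2 and 177, and the end ratio calls were 0. For single named genes, 811 alternative values stayed on the same side of the threshold, of which 22, called neither way, changed sign, 161 kept direction and no longer passed, and 6 newly passed. Depth limits the 189 genes with a least-read sum under 10, which were not fitted.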
